A study of Danio rerio with 6 samples.

Results

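The genes described here are the 297 zebrafish genes that the annotation classes as small nucleolar RNAs (snoRNAs), out of 31953 genes in the deposited count table. They were chosen by that biotype alone, with no use of their levels. By name, 89 began with SNORA, the H/ACA class, and 208 made up the class called C/D and other: 109 beginning with SNORD and 99 with other names, mostly copies of U3. The 297 genes carried 110 distinct names, and 67 of these names were shared by more than 1 gene. Their annotated lengths ran from 56 to 321 bases, with a median of 131 bases.

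snoRNAs are short RNAs that work in the nucleolus and in Cajal bodies as guides for enzymes. H/ACA snoRNAs pair with ribosomal RNA and direct the conversion of uridine to pseudouridine by the enzyme dyskerin, while C/D snoRNAs direct the addition of a methyl group to the ribose by fibrillarin. A few, among them U3, U8 and the H/ACA RNA called SNORA73, take part in cutting the ribosomal RNA precursor instead. In vertebrates most snoRNAs are trimmed out of introns of other genes, often genes for ribosomal proteins, and the mature RNAs carry no polyA tail.

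RNA from whole wild type AB embryos at 30 hours post fertilisation was compared between 3 *dancr* crispant libraries and 3 mock control libraries, with about 30 embryos in each group. *dancr* is a long noncoding RNA gene with *snora26* and *snora27* in its introns. The crispants were F0 embryos injected with Cas9 and 4 pooled crRNAs that delete the *dancr* promoter, so each embryo is a mosaic of edited and unedited cells, and embryos of the Class I and Class II phenotypes were taken. The mock injection mix lacked a *dancr* crRNA. Nothing in the labels says that replicates came from separate clutches, so the p-values measure the spread between these libraries. The libraries were made from polyA-selected RNA and kept the strand.

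The sequences that define the perturbation are the 4 crRNAs against *dancr*, with the 10 bases nearest the PAM in capitals. With them are shown the primers with which *snora26* and *snora27* can be amplified, in lower case throughout. Their positions were not computed here.
dancr-1: actccccaaaTCATCTGAAG
dancr-2: tctgagccccCTGACTGAAG
dancr-3: tttgcacaatCCCTGAGAGC
dancr-4: aaagcccactATAACTGTTC
snora26-Forward: tgcacattcaagtccttctatgg
snora26-Reverse: tggaatatcaaagccagcact
snora27-Forward: ctggaggctgtctgtgtctc
snora27-Reverse: gcctgggttttaacaagagca

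The libraries held 33841805 to 40515803 counts, of which 1131 to 1733 fell on snoRNA genes, or 0.00334% to 0.00428% of each library. Levels below are CPM, the counts per 1000000 counts of a library, scaled with edgeR's trimmed mean of M-values (TMM) factors. Mock replicate 3 stood apart, with a TMM factor of 0.749 against 0.988 to 1.14 in the other libraries, 33.4% of its counts in its 100 most counted genes against 24.2% to 26.9%, and 1312 counts of the neuronal gene *elavl3* against 5229 to 10902. The 8 marker genes of embryonic tissues were counted in every library. A count of 0 allows up to 3 counts, or 0.0728 to 0.105 CPM depending on the library, and such limits and all intervals here cover counting error only.

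In these polyA-selected libraries 155 of the 297 snoRNA genes (52.2%) had at least 1 count in some library, 51 (17.2%) were counted in all 6, and 31 (10.4%) reached a mean of 10 counts. For comparison, 94.7% of protein coding genes and 75.6% of lincRNA genes had a count. Those genes are far longer, with median lengths of 2098 and 796 bases against 131 for snoRNA genes. Detection differed by class. Of the H/ACA genes 64 of 89 (71.9%) were counted, of the SNORD genes 72 of 109 (66.1%), and of those with other names 19 of 99 (19.2%). H/ACA genes were also more often well counted: 17 of them reached a mean of 10 counts, against 7 SNORD genes and 7 with other names. The classes differ in length, with medians of 135 bases for H/ACA, 78 for SNORD and 216 for other names. The part of length in these differences was not tested.

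The low share among the other names lay with U3, the C/D RNA needed for the early cuts of the ribosomal RNA precursor, which in vertebrates is transcribed from promoters of its own. Of the 69 genes named U3 or ACEA_U3 only 1 (1.45%) had a count, and the 5 genes of U8, another independently transcribed C/D RNA, had none. Without U3 and U8, 90 of the remaining 134 C/D and other genes (67.2%) were counted. Of these 134, 109 are the SNORD genes themselves, with 72 counted. The U3 and ACEA_U3 genes are annotated at 213 to 217 bases, but their sequences were not compared here. Reads that match several such copies could be split or dropped in counting. Most ACEA_U3 genes also lie over a U3 gene on the same strand, so reads there fit both annotations. The counted U3 gene overlaps no other gene on its strand, but neither do several U3 genes at 0 counts. How such reads were handled is not given in the sources used here.

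**Figure D1:**
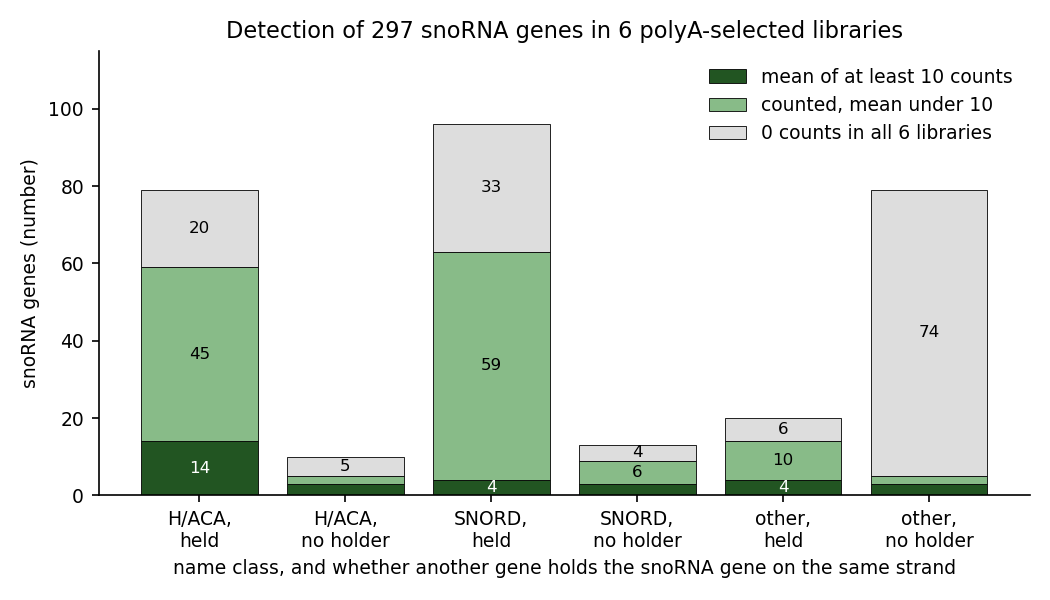
Number of snoRNA genes (vertical axis) with 0 counts in all 6 libraries, with counts but a mean under 10, and with a mean of at least 10 counts, by name class and by whether another gene holds them on the same strand. The bar of other names with no holder, which contains the U3 copies, is almost wholly at 0 counts (74 of 79), whereas in the 3 held groups most genes were counted.

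Over all 297 genes, those within another gene were more often counted, but this did not hold in each class. Another gene on the same strand held 195 of the snoRNA genes between its start and end, and 136 of these (69.7%) were counted, against 19 of the 102 with no such holder (18.6%). All genes named U3, ACEA_U3 or U8 are among those 102. Within the H/ACA class the shares were 59 of 79 held and 5 of 10 not held. Within the SNORD class they were 63 of 96 held and 9 of 13 not held (69.2%). The gap between held and not held genes was largest among the other names, at 14 of 20 against 5 of 79. Of those 79, 69 are named U3 or ACEA_U3 and 5 U8, and only 1 of these, a U3 gene, was counted. The rest are snR50, snoR38, snoU2_19 (ENSDARG00000100641) and snoZ30 (ENSDARG00000081799), all counted, and snopsi28S-3327, at 0 counts. The low share of the not held genes in this class thus lies with U3 and U8. A mean of 10 counts was reached by 14 held H/ACA genes and 3 not held. In the SNORD class it was reached by 4 held and 3 not held, and among the other names by 4 held and 3 not held. *snora26* and *snora27* count as not held, because no gene in the count table encloses them on the same strand. Genes held in ribosomal protein genes were counted in 49 of 62 cases (79.0%) and those held in other genes in 87 of 133 (65.4%). When the 195 held genes were put in 3 sets of 65 by their holder's level per length, 58.5%, 69.2% and 81.5% were counted from the lowest set to the highest, and 9, 9 and 22 genes were counted in all 6 libraries. All 11 genes held in *gas5*, the most in any holding gene, fell in the lowest set. Of them only SNORD79 ENSDARG00000080924 was counted, with 6 counts in all. The shares without *gas5* were not computed.

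Per length, the counted snoRNA genes stood far below the genes that hold them. The median of 136 members was 0.255% of the holder's CPM per kb, with quartiles of 0.0638% and 2.28%, and 1 member lay above its holder. Across these members the level per kb had a Spearman rho of 0.218 with that of the holder, as a description over genes that share libraries and, in many cases, a holder. Among counted members the percentage differed by the kind of holder. Its median was 0.0652% for 49 members in ribosomal protein genes, 0.49% for 69 in other protein coding genes and 8.34% for 18 in noncoding genes. The median level of these members was 1.02, 0.269 and 0.577 CPM per kb in the 3 groups, while that of the holders was 1200, 51.4 and 8.26 CPM per kb. The same count gives a higher percentage under a lower holder. Members at 0 counts are left out, so the order of the percentages holds for counted members only. Such members made up 13 of 62 held in ribosomal protein genes. In genes of a noncoding biotype they made up 22 of 41, with *rps20* in each of these sets. All members held in *gas5* except SNORD79 ENSDARG00000080924 are among these 22. The highest percentages, picked out after the values were seen, were those of both SNORA9 genes in the protein coding gene si:dkey-154b15.1, at 100.5% and 91.4%. Next, SNORA57 (ENSDARG00000083389) reached 83.8% of its noncoding holder si:ch73-39o22.3. After it came SNORA32 at 47.9% of si:ch211-209a2.1, SNORA3 (ENSDARG00000104594) at 47.3% of si:ch73-295i22.2, and SNORA1 at 40.2% of si:ch211-209a2.1. SNORA18 and snoZ40, also held in si:ch211-209a2.1, were at 0 counts. The other SNORA3 genes in si:ch73-295i22.2 were at 10.7% or at 0 counts. A read from an unspliced intron and a read from the snoRNA itself cannot be told apart in these counts.

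**Figure D2:**
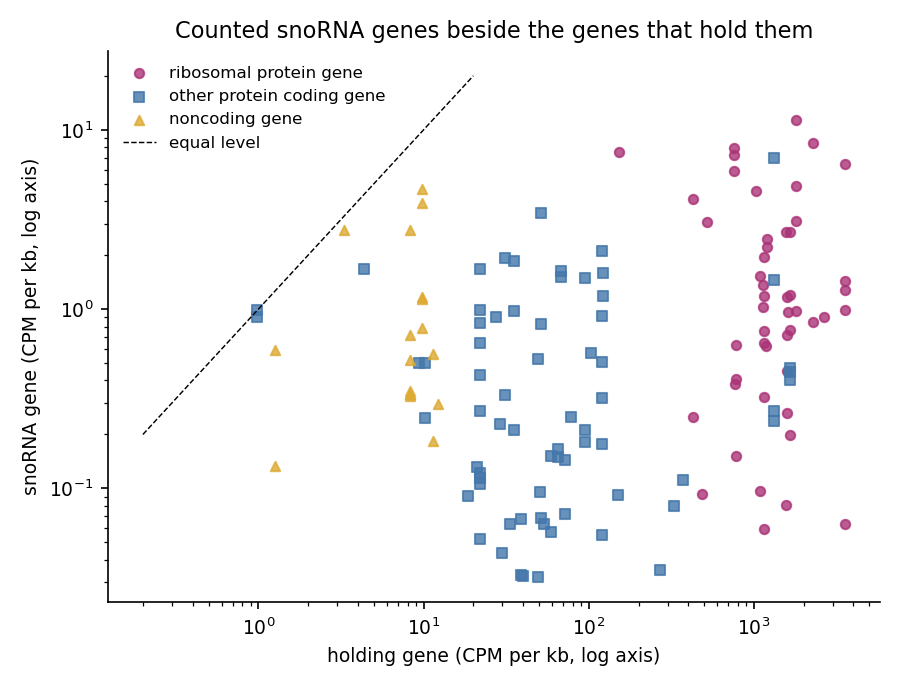
Mean level over the 6 libraries of each counted snoRNA gene (vertical) against that of the gene holding it (horizontal), both in CPM per kb on log axes, with the kind of holder by colour and marker and a dashed line at equal levels. Counted members in ribosomal protein genes lie farthest below the line (median 0.0652% of the holder) and those in noncoding genes nearest to it (median 8.34%). Genes at 0 counts are not shown.

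*snora26* is an H/ACA RNA within *dancr*. *dancr* itself was not analysed here. The *snora26* gene ENSDARG00000085485 (GRCz10, chr20:23182969-23183090, minus strand) had 22, 8 and 16 counts in mock replicates 1 to 3 and 0, 7 and 4 counts in crispant replicates 1 to 3. In CPM this was 0.609, 0.208 and 0.560 against 0, 0.175 and 0.0970, so every crispant library lay below every mock library, although crispant replicate 2 and mock replicate 2 differed by 1 count. The mean was 0.459 ± 0.219 CPM in mock and 0.0906 ± 0.0876 CPM in the crispants (SD, n = 3 each). On the log2(CPM + 0.1) scale the difference was −1.58, or −0.41 with a pseudocount of 1 CPM, both with an exact two-sided permutation p of 0.1, the smallest that 3 against 3 libraries can give. The gene was too low for the filter on counts. In edgeR without that filter its log2 fold change was −2.28 (SE 1.05), with a Benjamini-Hochberg adjusted p of 0.958.

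*snora27*, the other H/ACA RNA of the locus, could not be compared. ENSDARG00000084628 (chr20:23182560-23182696, minus strand) had 1 count, in crispant replicate 1, and 0 in the other 5 libraries. A second gene named SNORA26, ENSDARG00000103384 (chr20:23182560-23182681), lies wholly within it on the same strand and had 0 counts in all 6 libraries. Reads inside the shared stretch fit both annotations, and how the authors' counting assigned them is not given in the sources used here.

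The summed level of all snoRNA genes did not separate the groups. It was 31.3, 33.7 and 55.7 CPM in mock and 32.8, 43.3 and 32.1 CPM in the crispants, or 40.2 ± 13.4 against 36.0 ± 6.30 CPM (SD, n = 3 each). The groups overlapped, mock replicate 3 was the highest library, and the log2 ratio of the means was −0.16 (exact two-sided permutation p = 0.7). Without mock replicate 3 the ratio turned to 0.16. The share of counts in crispant replicate 2, 0.00428% (95% exact binomial interval 0.00408% to 0.00448%), lay above that in crispant replicate 1, 0.00351% (0.00331% to 0.00371%), so replicates of a group differed beyond counting error.

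Both classes showed the same order of libraries at the top. The H/ACA sum was 15.3, 17.3 and 26.8 CPM in mock and 15.2, 19.7 and 14.4 CPM in the crispants (log2 ratio −0.27, exact permutation p = 0.5). The C/D and other sum was 16.1, 16.4 and 28.9 CPM against 17.5, 23.6 and 17.6 CPM (log2 ratio −0.063, exact permutation p = 1). In each class mock replicate 3 was highest and crispant replicate 2 next, and the groups overlapped. Without mock replicate 3 the ratios were 0.028 for H/ACA and 0.28 for C/D and other.

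Mock replicate 3 was also the highest library for the genes around the snoRNAs. The 78 holding genes summed to 104500 CPM there, against 42720 and 51550 CPM in the other mock libraries and 36070 to 53120 CPM in the crispants, and the 85 cytosolic ribosomal protein genes to 181700 CPM against 51530 to 81570 CPM. Held snoRNA genes amounted to 0.407, 0.425 and 0.286 CPM per 1000 CPM of their holders in mock and 0.423, 0.459 and 0.518 in the crispants, with mock replicate 3 the lowest and the groups overlapping. The snoRNA genes with no holder, at 25.8 CPM in mock replicate 3 against 11.8 to 18.9 CPM elsewhere, were highest there too. The part of this library in each group difference was measured only by leaving it out.

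The balance between the classes was also compared. H/ACA genes took 48.7%, 51.4% and 48.2% of the snoRNA counts in mock and 46.5%, 45.5% and 45.0% in the crispants. All 3 crispant libraries lay below all 3 mock libraries, though most of their 95% exact binomial intervals overlapped. Those of mock replicates 1 (45.8% to 51.7%) and 3 (45.7% to 50.6%) overlapped the intervals of all 3 crispant libraries, whose upper ends were 47.7% to 49.4%. That of mock replicate 2 (48.6% to 54.1%) overlapped only that of crispant replicate 1 (43.7% to 49.4%). As a log2 ratio of H/ACA to C/D and other counts the difference was −0.22 (mock −0.034 ± 0.099, crispants −0.25 ± 0.045, SD, exact permutation p = 0.1, the smallest possible). It ran from −0.25 to −0.16 when any single library was left out, and was −0.19 without *snora26*. Over the 33 members that overlap no other gene on the same strand it was −0.027 (exact permutation p = 1). That set leaves out every held member. Its only counted H/ACA genes are SNORA16 (ENSDARG00000081931), SNORA62 (ENSDARG00000084991) and *snora26*, so it says little about the class as a whole.

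**Figure D3:**
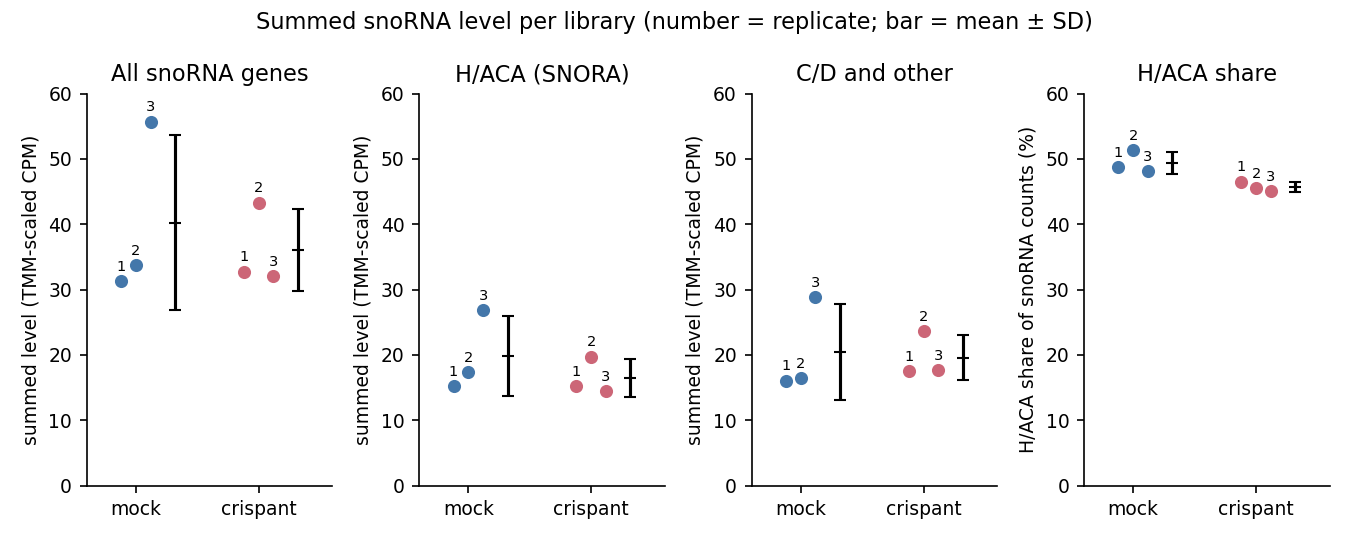
Summed TMM-scaled CPM of all snoRNA genes, of H/ACA genes and of C/D and other genes, and the H/ACA share of snoRNA counts in percent, for each library (points, numbered by replicate) with the mean ± SD of each group of 3. Mock replicate 3 is highest in the 3 sums (55.7 CPM over all snoRNA genes), and in the share the crispants (45.0% to 46.5%) lie below the mock libraries (48.2% to 51.4%).

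The number of snoRNA genes with a count was 94, 113 and 84 in mock and 107, 107 and 98 in the crispants, a difference of 7 genes with overlapping groups (exact permutation p = 0.6). The difference was 0.5 without mock replicate 3 and 15 without mock replicate 2. With at least 5 counts required, the numbers were 47, 53 and 47 against 55, 67 and 56, where the groups did not overlap (exact permutation p = 0.1, the smallest possible). Most counted genes were shared: 116 had counts in both groups, 19 in mock libraries alone with at most 10 counts in all, and 20 in crispant libraries alone with at most 44.

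The counts were concentrated in a few genes. The 10 snoRNA genes with the highest mean CPM took 44.3% to 58.7% of the snoRNA counts of a library, and only 4 of these 10 had a holder. The highest, snR50 (ENSDARG00000098998, chr12:36465409-36465498), a short RNA with no holder, had 127, 102 and 247 counts in mock and 117, 192 and 122 in the crispants. Its groups overlapped, with mock replicates 1 and 2 at 3.52 and 2.66 CPM against 2.96 to 4.80 CPM in the crispants. Mock replicate 3 lay above every crispant library, at 8.64 CPM. The log2 fold change of snR50 in edgeR was −0.44 (SE 0.49), and 0.25 without mock replicate 3.

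SNORA73, the H/ACA RNA also known as U17 that acts in processing of the small subunit's ribosomal RNA, was present as 4 copies within *rps7*, the gene of a small subunit ribosomal protein on chromosome 20. Their counts differed. ENSDARG00000082242 had 50, 63 and 173 counts in mock and 73, 93 and 71 in the crispants, and was second by level. ENSDARG00000083108 had 34, 53 and 39 against 32, 45 and 31 counts. ENSDARG00000080823 had 1, 4 and 13 against 12, 6 and 9 counts. In these 3 copies the groups overlapped.

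The fourth copy, ENSDARG00000083400 (chr20:30469784-30470004, minus strand), had 31, 32 and 36 counts in mock and 11, 17 and 17 in the crispants. In CPM it was 0.984 ± 0.239 against 0.379 ± 0.0697 (SD, n = 3 each), and every crispant library lay below every mock library. Its log2 fold change in edgeR was −1.37 (SE 0.50, unadjusted p = 0.0245, Benjamini-Hochberg adjusted p = 0.787), so it did not pass the test. Leaving out single libraries moved the value between −1.47 and −1.14. Its holder *rps7* had 890, 1234 and 2954 CPM in mock and 866, 941 and 596 CPM in the crispants, and its groups overlapped (log2 fold change −1.08, SE 0.46, edgeR adjusted p = 0.883). Reads that match several of the 4 copies are uncertain between them.

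SNORD99 and SNORA16 lie 1817 bases apart on chromosome 19, and in human the genes of these names share a noncoding host gene. SNORD99, a C/D RNA (ENSDARG00000081580), had 64, 56 and 120 counts in mock and 58, 82 and 64 in the crispants. SNORA16, an H/ACA RNA (ENSDARG00000081931), had 70, 43 and 45 against 95, 82 and 46 counts. Mock replicate 3 was the highest library for SNORD99 but not for SNORA16, and in both the groups overlapped. A second SNORA16 gene, ENSDARG00000081082, had 0 counts in all 6 libraries. It lies wholly within snopsi28S-3327 on the same strand, also at 0 counts, so reads there fit both annotations.

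The remaining most counted genes also overlapped between groups. snoR38 (ENSDARG00000105016) had 69, 51 and 105 counts in mock and 68, 105 and 47 in the crispants. snoU2_19 (ENSDARG00000100641), whose other copy was at 0 counts throughout, had 47, 97 and 29 against 58, 75 and 157 counts. SNORA47 (ENSDARG00000083424), an H/ACA RNA, had 52, 36 and 77 against 21, 46 and 49 counts. In CPM the highest library was mock replicate 3 for SNORA47 and snoR38 and crispant replicate 3 for snoU2_19.

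SNORA54 (ENSDARG00000083593), an H/ACA RNA within the ribosomal protein gene *rpl3*, had 27, 27 and 64 counts in mock and 21, 60 and 50 in the crispants. snoU85 (ENSDARG00000083325), whose name is that of a composite RNA with H/ACA and C/D parts that resides in Cajal bodies, lies in the condensin gene *ncapd2* and had 28, 45 and 35 against 38, 37 and 39 counts. It was the steadiest of the 10 in the crispants, at 0.967 ± 0.0561 CPM (SD, n = 3). The other copies of snoU85 in *ncapd2* had at most 15 counts (ENSDARG00000104320) and at most 4 (ENSDARG00000081126) in a library.

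**Figure D4:**
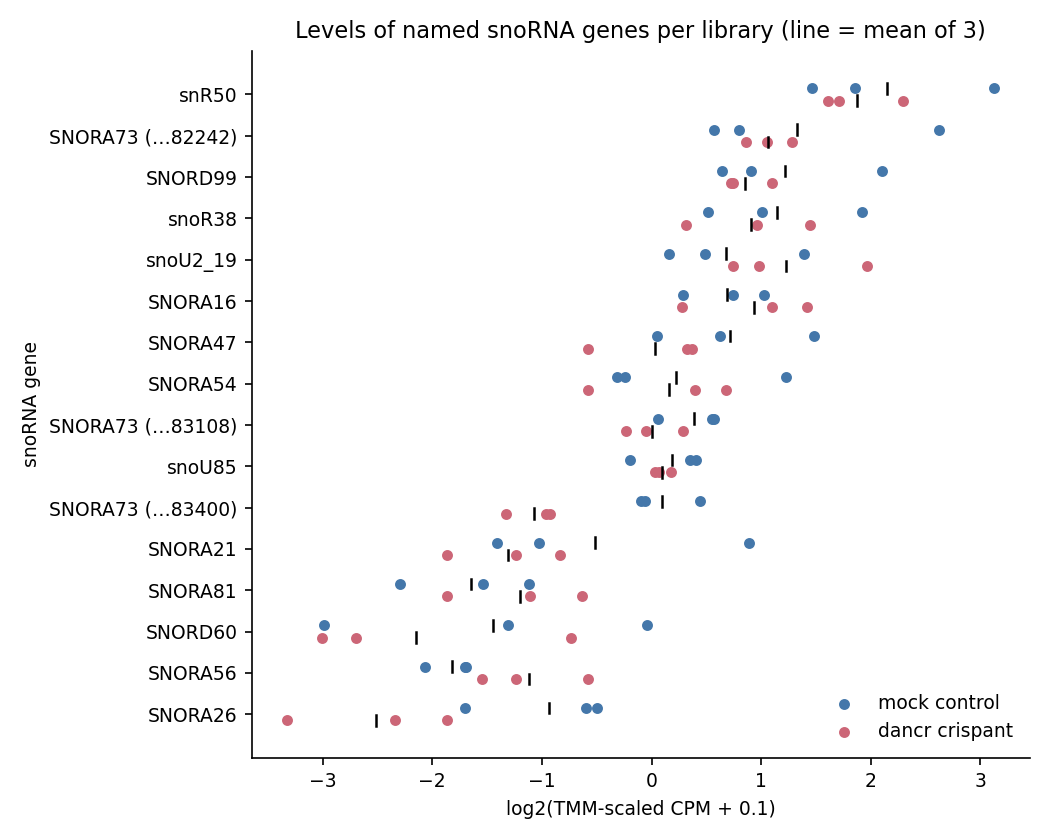
Level of 16 named snoRNA genes in each library as log2(TMM-scaled CPM + 0.1), with mock control and *dancr* crispant libraries in separate colours, a black line at each mean of 3 and genes ordered by mean CPM. The groups are apart for SNORA26, SNORA56 and the SNORA73 copy ENSDARG00000083400, and overlap for the other 13. Over all genes tested the groups were apart in 11.9%. SNORA56 and that SNORA73 copy were named for their fold changes, so their separation follows in part from that choice.

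The test across all genes called no snoRNA gene. edgeR tested 33 of the 297, of which 19 were H/ACA, 7 SNORD and 7 of other names, and 0 reached the threshold, which asked for a change of 1 log2 unit or more and an adjusted p no higher than 0.05. Over all 20812 genes tested the share called was likewise 0%. DESeq2 and limma-voom also called 0 snoRNA genes, although DESeq2 called 164 genes in all and gave no adjusted p to 108 of the 155 snoRNA genes in its fit. At an unadjusted p under 0.05 in edgeR there was 1 snoRNA gene, the SNORA73 copy described above, beside 5.49% of all genes tested (2.47% with a lower level in the crispants).

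The fold changes of the 33 genes ran from −1.37 to 1.02 on the log2 scale, with 29 within 1 of 0. Their median was −0.18, against −0.039 over all genes, and 14 of the 33 lay above 0, against 45.5% of all genes tested. Without mock replicate 3 the median was 0.22 and 26 of 41 tested lay above 0, against a median of 0.011 and 10958 of 21388 over all genes. The standard errors had a median of 0.65, against 0.37 over all genes, so a change of the size of the 1 log2 unit required was not resolved for most snoRNA genes at this depth. The groups did not overlap in 2 of the 33, against 11.9% of all genes. Of these 1 was higher in the crispants, against 6.5% of all genes, and 1 was lower, against 5.44%. Of the 24 tested members with a tested holder, 15 lay on the same side of 0 as the holder, and the 18 holders had a median log2 fold change of −0.63. The medians of the 33 genes and of the holders were both below 0, and the agreement that this alone would give was not computed.

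**Figure D5:**
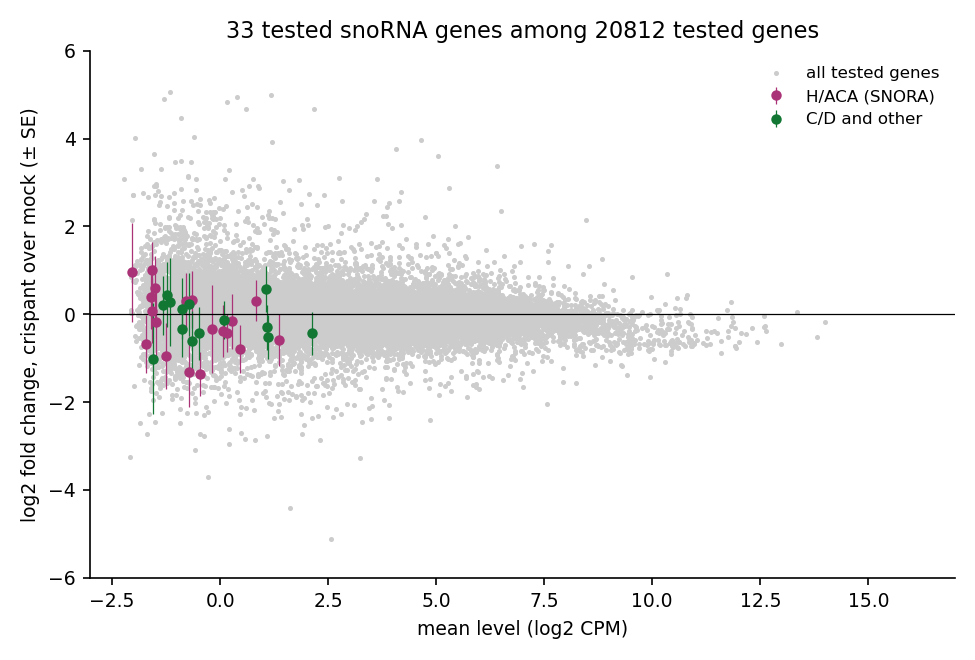
Log2 fold change of crispant over mock (vertical, with SE bars for snoRNA genes) against the mean level in log2 CPM (horizontal) from edgeR, for 19 H/ACA and 14 C/D and other genes over all 20812 tested genes in grey, of which 3 fall outside the vertical range. The snoRNA genes lie at the low end of the levels, between −1.37 and 1.02.

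SNORA56 and SNORA81, both H/ACA RNAs, were among the tested members with the highest fold changes. SNORA56 (ENSDARG00000083826), within *dkc1*, the gene of dyskerin, had 5, 8 and 6 counts in mock and 21, 13 and 10 in the crispants. All crispant libraries lay above all mock libraries, with a log2 fold change of 1.02 (SE 0.63) and an edgeR adjusted p of 0.999. Without crispant replicate 1 the log2 fold change was 0.61. *dkc1* itself was at 239 ± 69.8 against 219 ± 49.1 CPM (SD, n = 3 each). SNORA81 (ENSDARG00000083986), within the translation factor gene *eif4a2*, had 13, 4 and 7 against 20, 7 and 15 counts, with overlapping groups. A second copy of SNORA81 in *eif4a2*, ENSDARG00000083699, had 4, 12 and 3 against 2, 8 and 7 counts.

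At the other end, the lowest fold changes after that of the SNORA73 copy were those of SNORA21 and SNORD60. SNORA21 (ENSDARG00000081050), an H/ACA RNA within the ribosomal protein gene *rpl23*, had 10, 15 and 50 counts in mock and 12, 7 and 19 in the crispants. Its log2 fold change of −1.30 (SE 0.82) was −0.042 without mock replicate 3, and its copy ENSDARG00000080533 had at most 3 counts in a library. SNORD60, a C/D RNA (ENSDARG00000086157, chr1:7235369-7235456), had 11, 1 and 25 against 2, 20 and 1 counts, spread widely within both groups.

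Single libraries decided the counts of several low members. A neighbouring SNORD60 gene, ENSDARG00000086351 (chr1:7234684-7234771), had 44 counts in crispant replicate 2 and 0 in the other 5 libraries, and of the other 4 genes of this name 1 had 2 counts, in crispant replicate 1, and the rest had none. Among the 90 snoRNA genes with at least 10 counts in all, 11 had over 50% of them in 1 library, most often crispant replicate 2 with 4 genes. The SNORA63 gene ENSDARG00000081702, 1 of 5 of that name held in *rplp0*, was a further such gene. It had 0, 8 and 1 counts in mock and 3, 17 and 0 in the crispants. SNORD57, held in *nop56*, had 0, 4 and 0 against 10, 2 and 2 counts. Both were named after their values were seen.

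Proteins that bind, assemble or mature snoRNAs were examined as a list of 35 names written from general knowledge, of which 31 were found and tested. None was called by edgeR, DESeq2 or limma-voom, and 0 had an unadjusted p under 0.05, against 5.49% of all genes. Their median log2 fold change was 0.037 with 18 of 31 above 0. The range ran from −0.52 for *phax*, listed under maturation and transport, to 0.60 for *NUFIP1*, an assembly factor. Without mock replicate 3, 30 of 31 lay above 0, 1 had an unadjusted p under 0.05 and 0 were called. Over all 21388 genes in that fit, 10958 lay above 0, 2398 had an unadjusted p under 0.05 and 20 were called.

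The C/D core proteins overlapped between the groups. *fbl*, the gene of fibrillarin, was at 252 ± 83.6 CPM in mock and 262 ± 94.2 CPM in the crispants (SD, n = 3 each). *nop56* was at 419 ± 106 against 384 ± 73.9 CPM and *nop58*, its partner, at 234 ± 42.1 against 234 ± 68.2 CPM. The snu13 genes *nhp2l1a* and *nhp2l1b* were at 22.2 ± 3.16 against 22.8 ± 1.89 CPM and 103 ± 44.0 against 89.7 ± 30.9 CPM. The mean differences were smaller than the larger SD in all 5.

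The H/ACA core proteins overlapped likewise. Beside *dkc1*, *nhp2* was at 69.0 ± 23.9 CPM in mock and 60.5 ± 10.5 CPM in the crispants (SD, n = 3 each). *nop10* was at 14.8 ± 4.42 against 14.5 ± 6.21 CPM, and *gar1* at 90.5 ± 24.9 against 111 ± 51.2 CPM. In each of these the mean difference was smaller than the larger SD.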

How the data were processed

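Whole embryo polyA RNA was sequenced as strand-specific libraries. According to the labels' processing notes the authors used HISAT2, DESeq2 and the GRCz10 (danRer10) build; the counting tool's handling of multi-mapped reads is not given in the sources used here. The authors deposited raw counts per gene and FPKM, which scales counts by gene length and depth; only the counts were tested, and the deposited gene length in bases was used for levels per kb. The authors' fold change and p-value columns were not used. Columns were assigned to the 3 mock control and 3 crispant samples by library name.

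Counts were analysed with edgeR 4.0.16 in R 4.3.3 (TMM, filterByExpr, quasi-likelihood test, Benjamini-Hochberg adjustment over all genes), with the threshold of the study's methods (adjusted p of at most 0.05, absolute log2 fold change of at least 1). DESeq2 1.42.0 and limma 3.58.1 were alternatives, and the fits were tested on simulated data. That simulation changed only genes at levels above those of every snoRNA gene, so it does not cover changes at snoRNA levels. Sums and ratios were compared by exact two-sided permutation over libraries (scipy 1.17.1), with a pseudocount of 0.1 CPM for *snora26*. Totals were 33841805 to 40515803 counts. A snoRNA gene was held when another gene of the count table that is no small RNA gene enclosed it on the same strand. Genes whose host is missing from that table thus count as not held.

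Members and lists were chosen with earlier results of these data known. Named were *snora26* and *snora27*, the 10 members highest by mean CPM, those with an unadjusted p under 0.05, the 3 highest and 3 lowest log2 fold changes among tested members, their holders and same-named copies, and the core snoRNP proteins. The result for 1 gene that this rule names is not reported here. No genome was used, so snoRNA sequences are not shown. Primers and crRNAs were copied from the study's oligonucleotide list.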

Additional observations from a re-analysis of the deposited data

How the results depend on the processing

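No snoRNA or snoRNP gene was called under any alternative. Over all genes, 2 were called without the filter on low counts, 164 by DESeq2, and 0 to 20 when single libraries were left out (20 without mock replicate 3, 1 without mock replicate 1). The summed snoRNA level turned from −0.16 to 0.057 with no TMM factor, and ran from −0.31 to 0.16 without single libraries. The H/ACA sum ran from −0.42 to 0.028. The C/D and other sum was 0.16 with no TMM factor, 0.039 without its most counted member and 0.017 over SNORD genes alone, and ran from −0.21 to 0.28. Log2 fold changes without single libraries ran from −0.74 to 0.25 for snR50, −0.93 to 0.42 for SNORA73 ENSDARG00000082242, −0.79 to 0.11 for SNORD99, −0.59 to 0.22 for snoR38, −0.44 to 0.61 for SNORA54 (0.0078 in limma-voom), −0.31 to 0.0021 for snoU85 and −3.20 to 0.24 for SNORD60 ENSDARG00000086157, each highest without mock replicate 3. Why was not tested. The class ratio and *snora26* kept their direction throughout. However, *snora26* moved to −0.41 with a pseudocount of 1 CPM, and the class ratio to −0.027 over members that overlap no other gene on the same strand. Every held member is left out of the latter. 2 alternatives for that ratio, without *snora26* and with ACA64 and snopsi28S-3327 as H/ACA (−0.21), were added after seeing the data.

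Deviations of same-numbered libraries had correlations of 0.23, −0.058 and −0.12, within the range of −0.39 to 0.29 between differently numbered ones. With 3 libraries a group this cannot settle whether the numbers pair them, and the labels do not say. With the replicate block edgeR called 0 snoRNA genes and the class ratio was −0.22 (exact sign-flip permutation p = 0.25, the smallest possible). No call changed.

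Most snoRNA genes had too few counts for a test, and 3 libraries a group limit every exact permutation p here to 0.1 or above.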

Other observations

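Among the other small RNA classes, 8 of 11 scaRNA genes, the guide RNAs of Cajal bodies, had a count, a share of 72.7%. SCARNA13, the most counted, had 7, 27 and 42 counts in mock and 11, 9 and 9 in the crispants, with overlapping groups. Of 1287 snRNA genes, the spliceosomal class, 3.89% had a count, and of 768 miRNA genes 24.3%.

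The 778 genes classed as rRNA, with a median length of 119 bases, summed to 21.3, 23.3 and 9.87 CPM in mock and 24.8, 40.4 and 43.5 CPM in the crispants. All crispant libraries lay above all mock libraries, and mock replicate 3, the highest library for snoRNA genes, was the lowest here. The misc_RNA class had 20, 38 and 25 counts against 128, 44 and 76, also without overlap. These sums were picked out after the values of 5 small RNA classes were seen and were not tested.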
